A study of Mus musculus with 6 samples.

Results

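The heat shock proteins and molecular chaperones of the mouse cochlea were compared between WT and *Cmah*-null animals as 73 genes out of the 18138 gene symbols on the array. A gene was taken when its symbol began with Hsp followed by a family letter (a, b, d, e or h), with Hsp90, with Dnaj of class a, b or c, or with Cct and a subunit digit, or when it was *Tcp1*, *Hsf1*, *Hsf2* or *Cryab*. The rule used symbols and no measured value, although it was written with earlier results of these data known. The 73 genes had 100 probes, and 21 genes had more than 1, of which the probe with the highest mean over the 6 arrays was used. *Hspa1b* was not matched by symbol and has no value here, and *Hsph1*, listed under its older symbol *Hsp105*, was not taken by the symbol rule.

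Total RNA of 3 WT and 3 *Cmah*-null animals aged 12 months and labelled C57BL/6 (C57BL/6J in the study's methods), had been hybridized to Illumina MouseRef-8 v2 arrays, 1 array per sample. The *Cmah*-null mice lack CMP-Neu5Ac hydroxylase, the enzyme that makes the sialic acid Neu5Gc, and the labels name no treatment of either group. The values are the deposited log2 signals, which were quantile-normalized, so a difference of 1 is a doubling of signal. A probe was counted as detected at a detection p under 0.05.

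Molecular chaperones hold unfolded proteins in solution and help them reach their folded form. Hsp70 proteins bind short hydrophobic stretches and are driven by DnaJ proteins, Hsp90 proteins act later on kinases and receptors, small heat shock proteins keep unfolding proteins from aggregating, and the ring-shaped chaperonins (Hsp60 with Hsp10 in mitochondria, TRiC in the cytosol) enclose a protein while it folds. Heat shock factors switch the inducible members on, and in the inner ear the heat shock response is known for protecting hair cells from noise, heat and ototoxic drugs.

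The arrays differed in ways that touch many of these genes. *Cmah*-null replicates 1 and 2 were the closest pair of all. The SD of their log2 difference over all probes was 0.126, against 0.307 to 0.636 for the other pairs. By the same measure *Cmah*-null replicate 3 differed from every other array by 0.562 to 0.636. The labels list replicates 1 and 2 as separate samples, and every SE and p with n = 3 and 3 counts them so. Whether they are independent was not tested. A probe was read from a median of 38 or 39 beads on the arrays of WT replicates 2 and 3 and *Cmah*-null replicate 3, and of 32 to 34 beads on the other 3. The hair cell markers *Slc26a5*, *Pou4f3* and *Atoh1* were detected on no array, and 3 of the 8 in that list (*Myo7a*, *Otof* and *Tmc1*) were detected on all 6. Markers of the cochlear supporting cells, fibrocytes and stria vascularis (*Gjb2*, *Coch* and others) were detected on all 6 arrays for 6 of 8 genes, and *Kcne1* and *Kcnq1* on fewer. Markers of skeletal muscle were detected on all 6 arrays for 12 of 13 genes and those of blood and marrow for 9 of 9, so the tissue held more than the sensory epithelium. In such tissue, fewer cells of a type and less RNA per cell cannot be told apart.

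Of the 73 genes, 58 were detected on all 6 arrays, 6 on some arrays and 9 on none, and all 73 were kept. In *Cmah*-null mice 4 genes were lower by at least 1.5-fold with an unadjusted p under 0.05 in limma, namely *Hspe1*, *Hspb3*, *Cct8* and *Dnajc15*, where 1.46% of all genes were called lower. None was higher by that rule, where 1.61% of all genes were. Counting only genes detected on all 6 arrays, the same 4 of 58 were lower against a background of 2.54%, and 0 of 58 were higher against 2.73%. At an unadjusted p under 0.05 alone, 1 gene (*Hspa2*) was higher and 7 were lower in limma, against a background of 9.07% in both directions together. No gene of the array passed a Benjamini-Hochberg adjusted p of 0.05 (0% of all genes), and the lowest adjusted p among the chaperones was 0.397, for *Hspd1*. Without *Cmah*-null replicate 3 none of the 4 genes was called and *Hspb7* and *Hspb8* were called lower instead, and without WT replicate 2 only *Dnajc15* was called. Without WT replicate 3, *Hspa1a* and *Hspa2* were called higher, and leaving out WT replicate 1 or *Cmah*-null replicate 2 or 3 gave 1 higher call each (*Dnajc6*, *Hspa2* and *Dnajc12*). The share of all genes called with an array left out was not counted.

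The median log2 fold change (*Cmah*-null minus WT) of the 73 genes was -0.08, beside 0.01 over all genes, and 43 were lower and 30 higher in their group means. Among genes detected on all 6 arrays the 2 groups of arrays did not overlap for 8 chaperones that were lower in *Cmah*-null mice (background 7.43%) and for 2 that were higher (background 12.1%). The direction of these counts rested on the scaling. When each array was brought to 1 common median and not to 1 common distribution, 11 chaperones were called higher and 0 lower, and all genes moved with them, since 11.8% of all genes were then called higher and 0.27% lower. Median scaling moved the median of all genes detected on every array from 0.04 to 0.34, and that of the chaperones detected on every array from -0.10 to 0.21, so the chaperones were below the array's median under both.

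**Figure D1:**
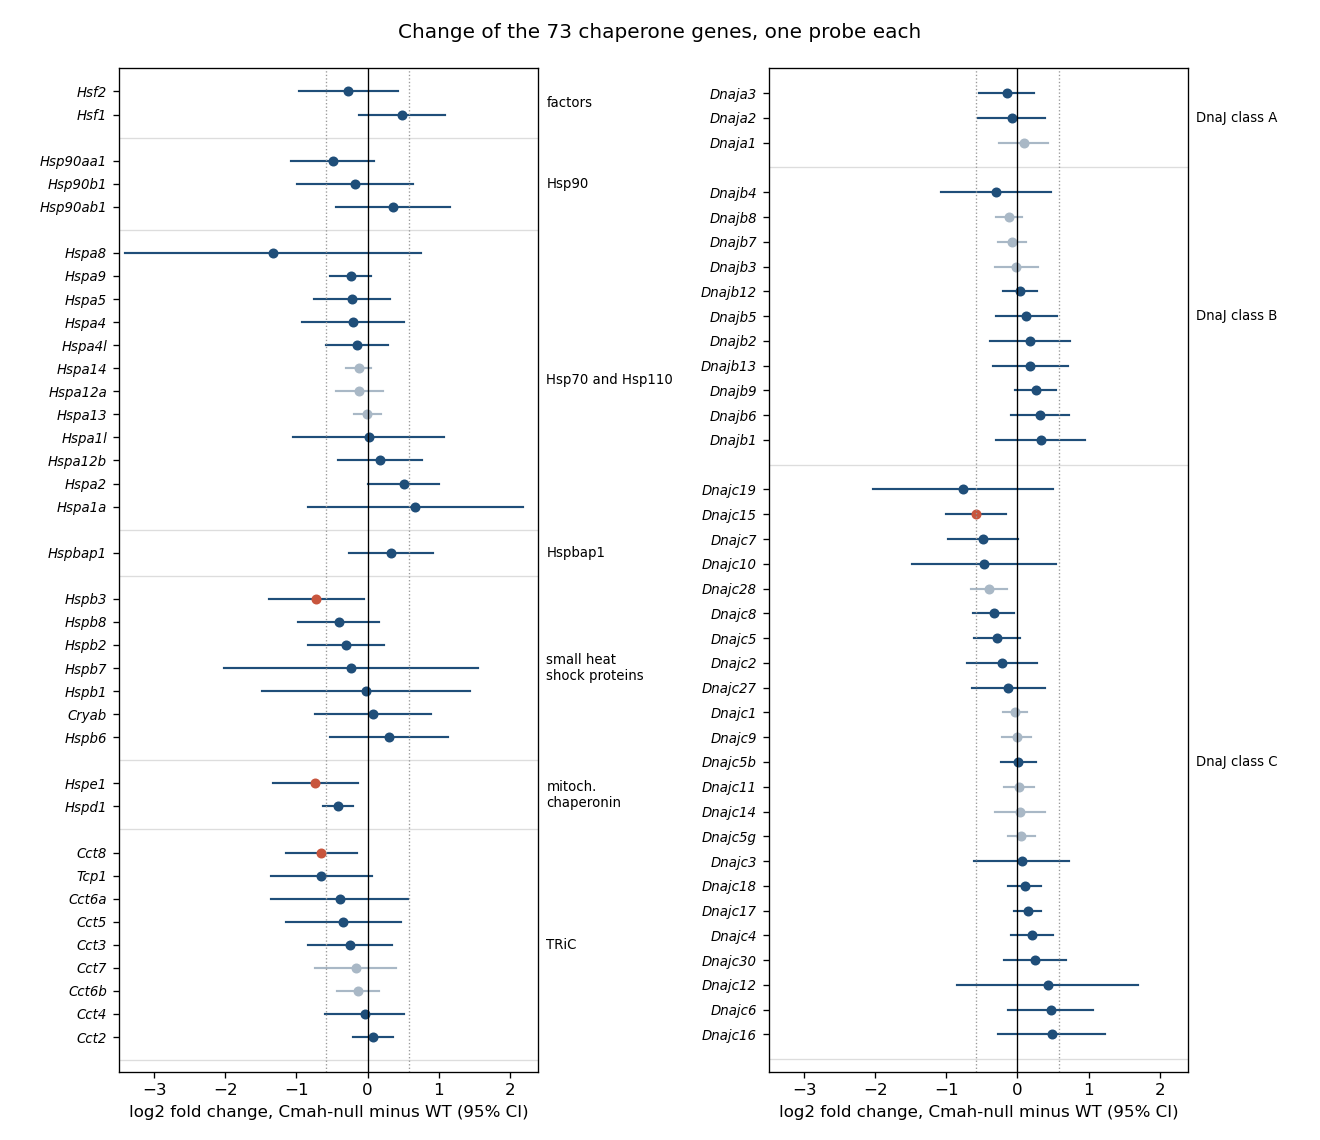
The points give the log2 fold change (*Cmah*-null minus WT, 3 arrays each) of the 73 genes by class, and the lines its 95% confidence interval from limma. Red points are the 4 genes called lower at 1.5-fold with p, pale ones were not detected on all 6 arrays, and dotted lines mark 1.5-fold. The interval of *Hspa8* is the widest of the figure, from -3.41 to 0.75.

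Both subunits of the mitochondrial chaperonin were lower in *Cmah*-null mice in the quantile-normalized values, while median scaling turned the sign of *Hspd1*. Hsp60, encoded by *Hspd1*, forms the folding ring of the mitochondrial matrix, and Hsp10, encoded by *Hspe1*, is its lid. *Hspd1* (chromosome 1, band 1qC1.2) had log2 signals of 12.86, 12.71 and 12.68 in WT mice and of 12.27, 12.31 and 12.43 in *Cmah*-null mice. The groups did not overlap, and the 3 arrays of each lay close together. Its log2 fold change was -0.42 (SE 0.09, n = 3 and 3, limma, unadjusted p = 0.00352, adjusted p = 0.397), below the 1.5-fold limit. The p depended on the variance estimate. For the same change the unadjusted limma p of *Hspd1* was 0.091 under a variance prior with trend and robust. With the filter on detection it was 0.0205. *Hspe1*, in the same band, had signals of 10.06, 10.80 and 10.65 against 9.96, 9.92 and 9.43. The groups were again apart, by 0.10 between the lowest WT and the highest *Cmah*-null array, and the log2 fold change was -0.73 (SE 0.24, n = 3 and 3, limma, unadjusted p = 0.024, adjusted p = 0.54). Among arrays with more beads per probe the difference was -0.26 for *Hspd1* and -1.30 for *Hspe1*, and among those with fewer it was -0.57 and -0.12. The former sets WT replicates 2 and 3 against *Cmah*-null replicate 3 alone. The latter sets WT replicate 1 alone against *Cmah*-null replicates 1 and 2. Under median scaling *Hspd1* stood at 0.10 and *Hspe1* at -0.33, both below the 0.34 of all genes, and the *Hspe1* call was lost there and without WT replicate 2 (-0.59), WT replicate 3 (-0.66) or *Cmah*-null replicate 3 (-0.56).

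These neighbours are read in opposite directions from a shared stretch of chromosome 1. In the RefSeq promoter windows (GRCm38.p6, 250 bases before to 50 after each start) 1 of the 2 starts listed for *Hspd1*, on the minus strand, lies 216 bases from that of *Hspe1*, on the plus strand, and their windows share 285 bases. The stretch between them holds heat shock elements, the inverted GAA repeats to which heat shock factors bind. It is shown because both genes shared the direction, with the bases covered by 2 overlapping matches to GAANNTTCNNGAA, read on both strands, in capitals, the last ending 71 bases before the *Hspe1* start.
Hspe1, plus strand, chr1:55088053-55088082: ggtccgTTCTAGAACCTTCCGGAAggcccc

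This long element was found in 3 of the 57 chaperone genes with a promoter window (*Hspd1*, *Hspe1* and *Dnajb6*, 5.26%) and in 0.662% of all 27025 genes with one. *Hspd1* and *Hspe1* are counted there for the same stretch. The shorter GAANNTTC, which every long match contains and which reads the same on both strands, was in 12 of 57 (21.1%) against 9.04% of all genes. Those 12 did not share a direction on the arrays. In group means 6 were higher and 6 lower in the knockout, their median log2 fold change was 0.02, and 2 of them (*Hspe1* and *Hspb3*) were among the called genes. The match describes letters and not binding.

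Of 5 other mitochondrial members detected on all 6 arrays, put together after their values were seen, 4 were lower in group means and only *Dnajc15* was called. *Dnajc15*, a co-chaperone of the import motor of the inner membrane (chromosome 14, band 14qD3), had signals of 12.20, 11.74 and 11.76 in WT and of 11.44, 11.42 and 11.07 in *Cmah*-null mice. The groups did not overlap, and the log2 fold change was -0.59 (SE 0.17, n = 3 and 3, limma, unadjusted p = 0.0147, adjusted p = 0.492), and it was -0.68 and -0.76 within the arrays with more and with fewer beads. Median scaling gave -0.09 (limma, unadjusted p = 0.801), below the 0.34 of all genes, and the value fell under 1.5-fold without WT replicate 1 (-0.44) or *Cmah*-null replicate 3 (-0.47). *Dnajc19*, another part of that motor, read 12.48, 12.49 and 12.12 against 12.22, 12.17 and 10.38, so its -0.77 (SE 0.51) came largely from *Cmah*-null replicate 3. Without that array it was -0.17. *Hspa9*, mortalin, the Hsp70 of the matrix, read 14.25, 14.08 and 14.12 against 13.72, 13.94 and 14.08 (log2 fold change -0.24, SE 0.12), with overlapping groups, and stood at 0.21 under median scaling. *Dnaja3*, its DnaJ partner, had a log2 fold change of -0.15 (SE 0.16; 0.36 under median scaling), and *Dnajc30*, named after its value was seen, one of 0.24 (SE 0.18).

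The non-member chaperones and proteases of mitochondria gave 0 calls in 6 matched genes, 5 of them lower in group means. In genes chosen after their values were seen, *Clpx*, the unfoldase of the matrix protease, read 11.16, 10.96 and 11.29 against 10.55, 10.52 and 10.70. The groups did not overlap (log2 fold change -0.54, SE 0.11), while its protease partner *Clpp* lay the other way at 0.35 (SE 0.08), also without overlap. *Trap1*, the mitochondrial Hsp90, was at -0.30 (SE 0.13).

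Brown fat markers, from a tissue rich in mitochondria, moved in the same direction and further. All 5 had lower group means in the *Cmah*-null arrays and 4 were called lower (*Ucp1*, *Cidea*, *Cox7a1* and *Cox8b*), their median log2 fold change being -1.54. Their summed signal on the log2 scale ranged from 15.33 to 16.17 in WT and from 13.29 to 14.61 in *Cmah*-null arrays. Their part in the values of the mitochondrial chaperones was not tested.

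**Figure D2:**
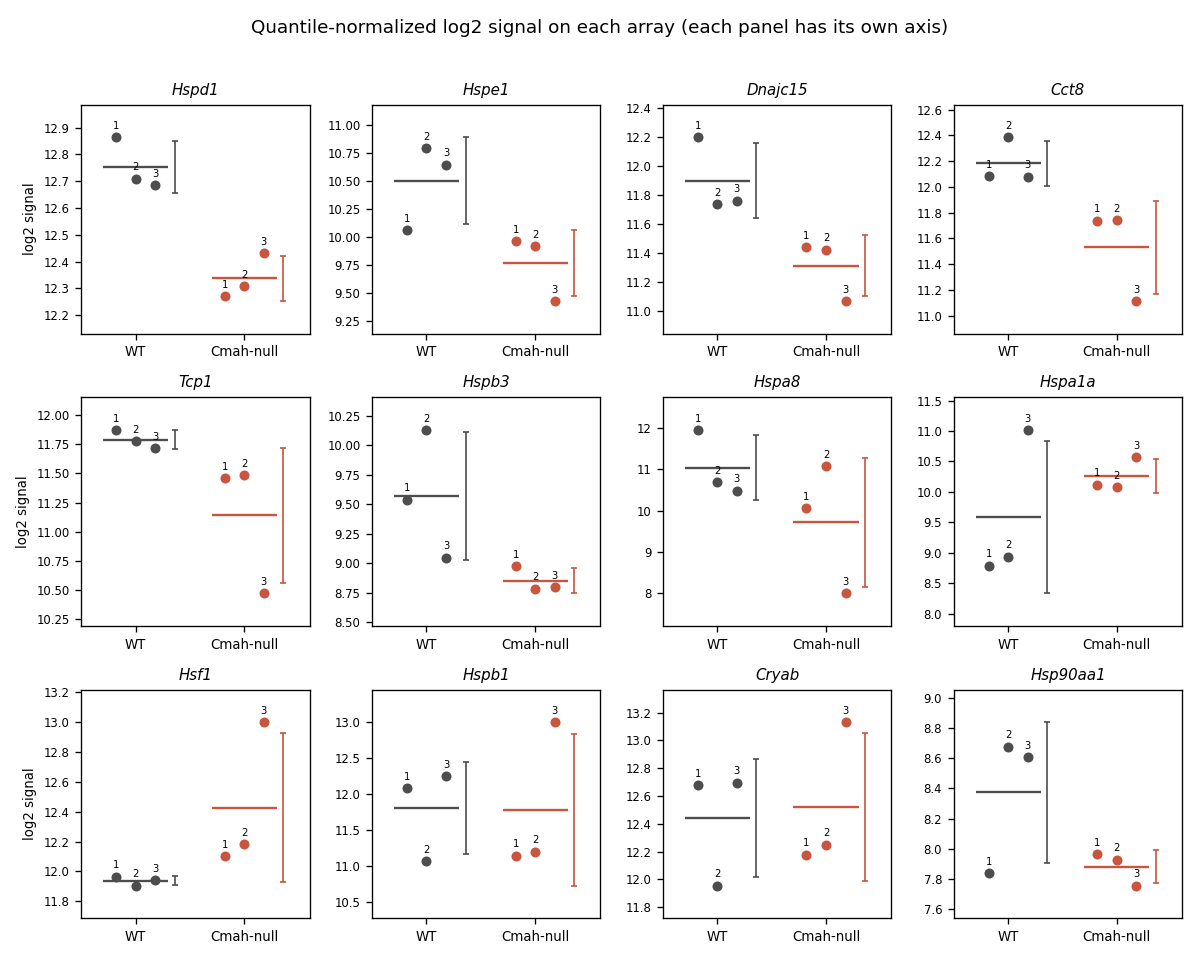
Each panel gives the quantile-normalized log2 signal of 1 gene on the 6 arrays, with the replicate number over each point, the group mean as a line and the SD (n = 3) as a bar at the side, and every panel has its own axis. *Hspd1*, *Hspe1*, *Dnajc15*, *Cct8*, *Tcp1* and *Hspb3* show groups that do not overlap, and *Cmah*-null replicate 3 is the highest array for *Hsf1*, *Hspb1* and *Cryab* and the lowest for *Hspa8*, *Tcp1* and *Cct8*.

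The cytosolic chaperonin TRiC, which folds actin and tubulin, had 8 of its 9 listed subunit genes lower in group means, and 1 passed the rule. Of the lower ones, *Cct6b* and *Cct7* were detected on only 3 arrays each. *Cct8* (chromosome 16, band 16qC3.3) had signals of 12.08, 12.38 and 12.08 in WT and of 11.74, 11.74 and 11.12 in *Cmah*-null mice. The groups did not overlap, and the log2 fold change was -0.65 (SE 0.20, n = 3 and 3, limma, unadjusted p = 0.0188, adjusted p = 0.524). The call was lost under median scaling (-0.16, limma, unadjusted p = 0.65), without WT replicate 2 (-0.55) and without *Cmah*-null replicate 3 (-0.44). *Tcp1*, the alpha subunit (chromosome 17, band 17qA1), read 11.87, 11.78 and 11.72 against 11.46, 11.49 and 10.47. Its log2 fold change was also -0.65 but with an SE of 0.29, and it did not pass (limma, unadjusted p = 0.0652, adjusted p = 0.609). A dimmer *Tcp1* probe nearer the start of the transcript was lower without overlap as well, at -0.38 (SE 0.08).

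The remaining subunits had overlapping groups. They ran from -0.39 for *Cct6a* to 0.08 for *Cct2*, values given here for the range of the class. *Cmah*-null replicate 3 weighed on this class. The median of the 7 subunits detected on all 6 arrays was -0.34 and, without that array, -0.02, when 4 of the 7 were lower. Under median scaling the median of these subunits was 0.045 and 3 of the 7 were lower. All detected genes then stood at 0.34, and 6 of the 7 were below that. Prefoldin, which hands actin and tubulin chains to TRiC and is no member here, had 5 of 5 matched subunits lower in group means and 0 called, with a median of -0.38. Without *Cmah*-null replicate 3, 3 of 5 were lower and the median was -0.05.

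The Hsp70 class had 12 genes and no call. *Hspa8*, the constitutive Hsc70 of the cytosol (chromosome 9, band 9qA5.1), spread more than any other member. Its log2 signal was 11.96, 10.69 and 10.48 in WT mice and 10.07, 11.08 and 7.997 in *Cmah*-null mice. The groups overlapped, and the log2 fold change of -1.33 had an SE of 0.85 (n = 3 and 3, limma, unadjusted p = 0.168, adjusted p = 0.702), with a 95% confidence interval from -3.41 to 0.75. Leaving out 1 array at a time gave -2.01 to -0.47. With the number of beads as a block it was -1.99 (limma, unadjusted p = 0.00418, adjusted p = 0.137). Its probe lies at base 25 of the transcript, far from the end at which labelling starts.

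*Hspa1a*, the stress-inducible Hsp70 (chromosome 17, band 17qB1), was split within the WT group. Its signals were 8.79, 8.94 and 11.02 in WT and 10.12, 10.07 and 10.58 in *Cmah*-null mice, so that WT replicate 3 was the highest of all and the other 2 WT arrays the lowest. The log2 fold change was 0.67 (SE 0.61, n = 3 and 3, limma, unadjusted p = 0.315, adjusted p = 0.783). Without WT replicate 3 it was 1.39 (limma, unadjusted p = 0.000844). The array left out there is the one that stood apart, so this p is not read as support. Leaving out WT replicate 1 or 2 gave 0.28 or 0.35. The study's PCR array, another assay with its own normalisation, listed *Hspa1a* as down-regulated in *Cmah*-null cochlea, opposite to the group means here. The reason for the difference was not tested. The *Hspa1a* promoter window holds 1 exact match to the short GAANNTTC, in capitals, ending 96 bases before the start. It is shown as that of the most inducible gene of the set.
Hspa1a, minus strand, chr17:34972233-34972280: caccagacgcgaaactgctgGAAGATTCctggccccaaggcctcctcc

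The immediate early genes, which a cell or a dissection can switch on within minutes, were higher in group means in 9 of 9 cases, 2 of them called (*Fos* and *Fosb*). Their summed log2 signal was 13.74 to 14.50 in WT and 14.34 to 15.44 in *Cmah*-null arrays. Without *Cmah*-null replicate 3, 4 of the 9 genes were lower. The median log2 fold change of the list was then 0.03, against 0.48 with that array. *Ier2* was detected on only 1 array. *Fos* read 9.71, 10.47 and 10.28 in WT and 11.35, 11.30 and 11.89 in *Cmah*-null mice. WT replicate 3, the array highest for *Hspa1a*, was also the highest WT array for *Atf3*, *Egr2* and *Ier2* and not for the other 6 genes of the list. The part of this difference in the *Hspa1a* values was not tested.

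*Hspa2*, a Hsp70 best known from the testis, was the member with p under 0.05 on the higher side. It read 11.38, 11.26 and 11.81 in WT and 11.88, 11.79 and 12.31 in *Cmah*-null mice, overlapping slightly, with a log2 fold change of 0.51 (SE 0.20, limma, unadjusted p = 0.0462, adjusted p = 0.58). Its second probe gave 0.55 (SE 0.25). *Hspa5*, the BiP of the endoplasmic reticulum, read 7.65, 8.22 and 8.42 against 7.88, 7.70 and 8.04 (log2 fold change -0.22, SE 0.22). *Hsph1*, the Hsp110 exchange factor of Hsp70 and no member by its listed symbol, read 12.39, 12.48 and 12.78 against 12.94, 12.88 and 12.75 (log2 fold change 0.30, SE 0.12). *Hspbap1*, which binds a small heat shock protein, was at 0.33 (SE 0.24), and without *Cmah*-null replicate 3 at 0.06.

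The Hsp90 genes did not move together, and for *Hsp90ab1* the answer depended on the probe. *Hsp90aa1*, the inducible cytosolic form, read 7.84, 8.68 and 8.60 in WT and 7.96, 7.93 and 7.76 in *Cmah*-null mice. WT replicate 1 lay among the *Cmah*-null arrays, and the log2 fold change was -0.49 (SE 0.24, limma, unadjusted p = 0.0855, adjusted p = 0.63). Without that array it was -0.76 (limma, unadjusted p = 0.000788), a p not read as support, since the array left out is the one that stood apart. Leaving out WT replicate 2 or 3 gave -0.339 or -0.375. *Hsp90b1*, the Grp94 of the endoplasmic reticulum, read 12.78, 13.42 and 13.41 against 13.49, 13.21 and 12.39 (log2 fold change -0.18, SE 0.33).

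*Hsp90ab1*, the constitutive cytosolic form (chromosome 17), has 3 probes on 1 transcript. The study normalised its PCR array to a set of housekeeping genes that included it, which is why the probes are shown. The first 30 of the 50 bases of each are given, in the order of the transcript, with the bases shared by the overlapping pair in capitals.
Hsp90ab1, probe from base 1283: gcagagCAAGATCCTGAAGGTCATCCGCAA
Hsp90ab1, probe from base 1289: CAAGATCCTGAAGGTCATCCGCAAgaacat
Hsp90ab1, probe from base 2262: gtggattaaagcctcctggaagaagccctg

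The downstream probe, the brightest of the 3 and so the one used for the gene, read 14.06, 13.86 and 13.92 in WT and 13.88, 13.98 and 15.07 in *Cmah*-null mice. The change of 0.36 on the log2 scale (SE 0.33) came from *Cmah*-null replicate 3 and was -0.02 without it. The probe from base 1289 read 11.87, 11.21 and 11.20 against 10.39, 10.92 and 10.98, without overlap, and was lower by the 1.5-fold rule at -0.67 (SE 0.25, limma, unadjusted p = 0.0375, adjusted p = 0.569). The probe from base 1283, which shares 44 bases with it and is therefore no independent reading, was at -0.59 (SE 0.32). Probes on 1 transcript thus gave opposite signs.

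*Dnajb6*, a class B DnaJ protein that keeps polyglutamine chains from aggregating, also had probes of opposite sign. These are not 2 readings of 1 transcript, since the array lists them for different forms. The probe typed as specific to 1 transcript form (type I) read 10.17, 10.30 and 10.21 in WT and 10.46, 10.29 and 10.90 in *Cmah*-null mice (log2 fold change 0.32, SE 0.17). The other is typed as common to all forms (type A) and lies near the start of the form it is listed for. It read 10.94, 10.73 and 10.37 against 9.97, 10.23 and 9.02, without overlap (log2 fold change -0.94, SE 0.34, limma, unadjusted p = 0.0339, adjusted p = 0.563). *Hspd1* differed in size but not in sign, since its second probe, at base 157, was at -1.03 (SE 0.39) against the -0.42 of the probe at base 1932.

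A measure over many genes moved with these differences. In 687 genes with probes at least 300 bases apart on the same transcript, all detected on every array, the upstream minus the downstream log2 signal was centred on each gene's mean. Its median was 0.289 on the array of WT replicate 1 and between -0.061 and 0.033 on those of WT replicates 2 and 3 and *Cmah*-null replicates 1 and 2. It was -0.177 on *Cmah*-null replicate 3. The median log2 fold change of the upstream probes was -0.13 and that of the downstream probes 0.03. The 4 chaperones among these genes (*Cct3*, *Hsp90ab1*, *Hspa9* and *Hspd1*) each had their highest centred value on WT replicate 1, and all but *Hspa9* had their lowest on *Cmah*-null replicate 3. The single *Hspa8* probe had its highest and lowest signal on those same arrays. The part of probe position in the values of *Hspa8*, *Hspd1* and the upstream *Hsp90ab1*, *Dnajb6* and *Tcp1* probes was not tested.

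**Figure D3:**
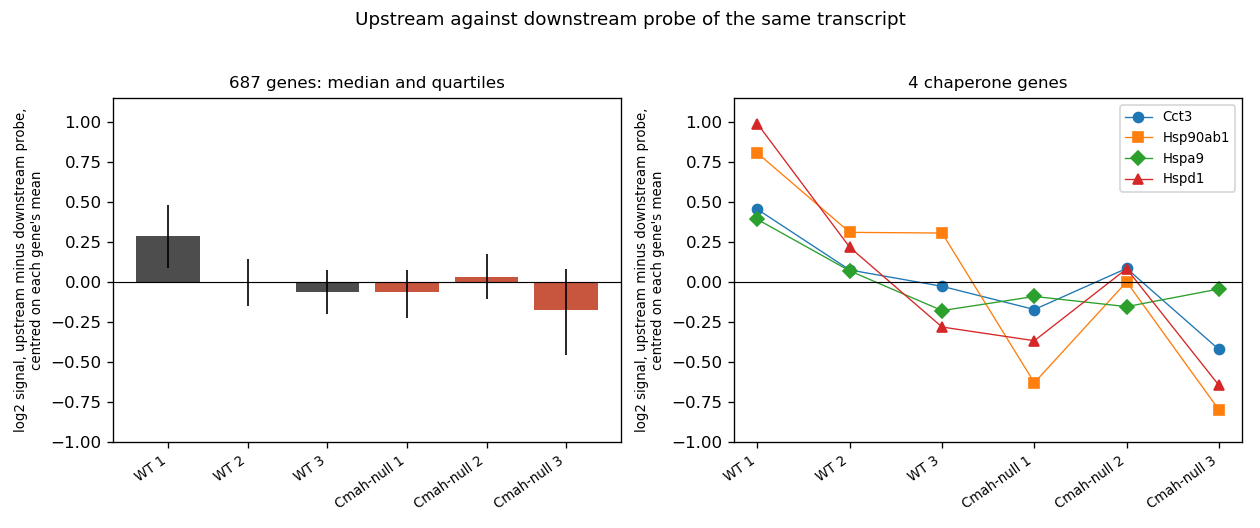
Left, the bars give the median, and the lines the quartiles, of the upstream minus downstream log2 signal over 687 genes on each array, centred on each gene's mean. Right, the same quantity for the 4 chaperones with such probes. WT replicate 1 is the highest array in both, at 0.289 over the 687 genes.

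The small heat shock proteins had 7 genes, all detected on all 6 arrays, and 1 call. *Hspb3*, a muscle member of the family (chromosome 13, band 13qD2.2), read 9.54, 10.13 and 9.05 in WT and 8.98, 8.79 and 8.80 in *Cmah*-null mice. The groups did not overlap, though WT replicate 3 came within 0.07 of the nearest *Cmah*-null array. The log2 fold change was -0.72 (SE 0.27, n = 3 and 3, limma, unadjusted p = 0.0392, adjusted p = 0.569). It was -0.79 and -0.66 within the arrays with more and with fewer beads, but the call was lost with the bead number as a block (limma, unadjusted p = 0.0668). It was also lost under median scaling (-0.44, limma, unadjusted p = 0.2), with *Cmah*-null replicates 1 and 2 averaged, and without any 1 array other than WT replicate 3.

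In each of the other 6 genes of this class, *Cmah*-null replicate 3 was the highest array of its group. *Hspb1*, Hsp27, read 12.09, 11.07 and 12.25 in WT and 11.15, 11.20 and 12.99 in *Cmah*-null mice, a log2 fold change of -0.02 (SE 0.59). *Cryab*, alpha-B crystallin, read 12.68, 11.95 and 12.70 against 12.18, 12.25 and 13.13, a log2 fold change of 0.08 (SE 0.33). The groups overlapped for both, with *Cmah*-null replicate 3 on top and replicates 1 and 2 below 2 of the 3 WT arrays. The class median was -0.24 and, without *Cmah*-null replicate 3, -0.61, when all 7 genes were lower. Markers of skeletal muscle, where several of these proteins are abundant, were lower in group means in 12 of 13 genes and without difference in *Myh2*, 0 of them called, with a summed log2 signal of 17.73 to 18.56 in WT and 17.73 to 18.04 in *Cmah*-null arrays. Their part in the small heat shock protein values was not tested.

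The *Hspb1* promoter is printed as one with 2 separate exact matches to GAANNTTC, both in capitals, the nearer ending 89 bases before the start.
Hspb1, plus strand, chr5:135887782-135887849: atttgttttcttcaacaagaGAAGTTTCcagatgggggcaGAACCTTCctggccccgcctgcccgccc

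Of the heat shock factors, *Hsf1*, which drives the response to heat (chromosome 15, band 15qD3), was 1 of the 2 chaperone genes detected on all 6 arrays that were higher without overlap. It read 11.96, 11.90 and 11.94 in WT and 12.10, 12.18 and 12.998 in *Cmah*-null mice. The WT arrays lay within 0.06, and most of the log2 fold change of 0.49 (SE 0.25, limma, unadjusted p = 0.0943, adjusted p = 0.642) came from *Cmah*-null replicate 3. Without it the change was 0.21, and with the number of beads as a block it was 0.63 (limma, unadjusted p = 0.0323, adjusted p = 0.238). The other gene without overlap, *Dnajc17*, had a log2 fold change of 0.15 (SE 0.08). *Hsf2* read 7.99, 8.73 and 8.69 against 8.02, 7.93 and 8.66, a log2 fold change of -0.27 (SE 0.28).

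The number of beads per probe separated the arrays for some members. For 8 chaperones detected on all 6 arrays (*Cct5*, *Dnajb2*, *Dnajb4*, *Dnajb12*, *Hsf2*, *Hspa4*, *Hspa4l* and *Hspa5*) the 3 arrays with more beads per probe were all above the other 3, and for 3 (*Cct6a*, *Dnajc6* and *Dnajc12*) they were all below. These are 13.8% and 5.17% of the 58 genes, against 11.1% and 10.3% of all genes detected on all 6 arrays, so nothing particular to the chaperones is read from them. With the number of beads as a block, 8 chaperones were called lower and 3 higher. The share of all genes called under that block was not counted, so these counts have no background. Within the arrays with more beads and within those with fewer, 15 of the 58 genes were lower in *Cmah*-null mice both times, 12 were higher both times and 31 changed sign. Each of these differences had a single array on one side, *Cmah*-null replicate 3 with more beads and WT replicate 1 with fewer.

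The DnaJ genes, which bring substrates to Hsp70 and start its ATP cycle, made up 37 of the members and gave 1 call, the *Dnajc15* already described. In class B, 7 of the 8 genes detected on all 6 arrays were higher in group means, with a median of 0.18, and 0 were called. *Dnajb1*, Hsp40, the main partner of the inducible Hsp70, read 11.53, 11.93 and 12.42 in WT and 12.47, 12.39 and 11.99 in *Cmah*-null mice. The groups overlapped, and the log2 fold change was 0.33 (SE 0.25, limma, unadjusted p = 0.249, adjusted p = 0.75). *Dnaja1*, another cytosolic partner, was detected on 4 arrays and was at 0.09 (SE 0.14). In class C, 9 of 17 detected genes were higher and 8 lower, with a median of 0.02.

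Among 42 further chaperone genes outside the symbol rule (of 48 listed), 1 was called higher and 0 lower, and the median log2 fold change was -0.05. The called gene was *Fkbp5*, an Hsp90 co-chaperone of the glucocorticoid receptor and itself induced by glucocorticoids. It read 9.49, 8.96 and 9.45 in WT and 10.10, 9.97 and 11.31 in *Cmah*-null mice. The groups did not overlap, and the log2 fold change was 1.16 (SE 0.38, n = 3 and 3, limma, unadjusted p = 0.0246, adjusted p = 0.542). Among chaperones of the endoplasmic reticulum, 6 of 9 were higher and 0 were called. The higher ones include *Canx* (0.01), detected on no array, and *Hyou1* (0.05), detected on 2. Without *Cmah*-null replicate 3, 5 of the 9 were lower, and the median was -0.02 against 0.05 with that array. *Creld2* (0.40, SE 0.11) and *Sil1* (0.39, SE 0.15), the genes of that list without overlap, both lay below 1.5-fold.

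**Figure D4:**
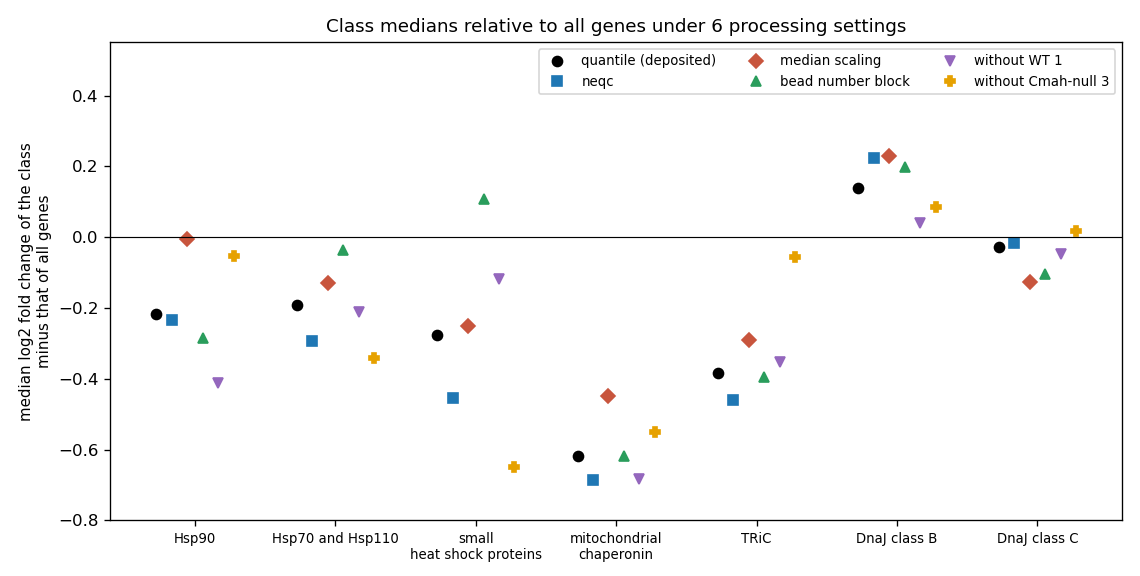
The points give the median log2 fold change (*Cmah*-null minus WT) of each class, over its genes detected on all 6 arrays, minus the median of all genes detected on all 6 arrays, under 6 settings. The mitochondrial chaperonin (2 genes) is below 0 and class B above 0 under all 6, while TRiC and the small heat shock proteins move with the removal of *Cmah*-null replicate 3.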

How the data were processed

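Deposited values of 6 arrays (25697 probes) were used. Per the file headers, the raw table holds intensity values (average bead signal, no background subtraction), beads per probe and its detection p-value. The deposited normalized table holds log2 values from the authors' quantile normalization, which equalled quantile-normalized log2 raw signals to within 5e-07. Its columns named "old" were taken as *Cmah*-null, the only other genotype, with their replicate number, and its repeat signal columns and the authors' own fold changes, statistics and p-values were not used. limma 3.58.1 in R 4.3.3 (lmFit, eBayes, two-sided, no covariate) was fitted over all probes with Benjamini-Hochberg adjustment, and tested on simulated data. The study's methods give 3 mice per group, and so few arrays limit the precision. Of the 73 symbols, 72 matched RefSeq by accession, all unchanged. Members and lists were chosen with earlier results of these data known. Genes named are a set of 18 well-known ones, those called with groups that do not overlap, and the largest change in each class, others as stated. Alternatives were neqc (offset 16), median scaling, a filter on detection on at least 3 arrays, a block for the replicate number or for the bead number, leaving out each array, a variance prior with trend and robust, *Cmah*-null replicates 1 and 2 averaged, and the second probe of a gene. Motifs were searched in Python 3.11.15, and figures drawn with matplotlib 3.10.9. Protein sequences were not used here.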

Additional observations from a re-analysis of the deposited data

How the results depend on the processing

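No chaperone passed an adjusted p of 0.05 in limma under any alternative, and the calls at 1.5-fold with p depended on the scaling and on single arrays. The calls higher and lower were 11 and 0 under median scaling, 3 and 8 with the bead number as a block, and 0 and 7 with the second probe per gene. With *Cmah*-null replicates 1 and 2 averaged they were 0 and 4, with *Tcp1* in the place of *Hspb3*. The share of all genes called was counted for the main fit and for median scaling only, so the other counts have no background. Leaving out 1 array gave 0 to 2 higher and 1 to 6 lower, with a median of the 73 genes from -0.08 to -0.04, and median scaling turned that median to 0.10. Median scaling also turned *Hspa9* (0.21), *Hsp90b1* (0.33), *Hspb1* (0.51), *Hspd1* (0.10) and *Dnaja3* (0.36), with the median of all detected genes then at 0.34. The second probe turned *Hsp90aa1* (0.052), *Hsp90ab1* (-0.67), *Dnaja1* (-0.04) and *Dnaja3* (0.003). Of these second probes only that of *Hsp90ab1* was detected on all 6 arrays. Those of *Hsp90aa1* and *Dnaja1* were detected on no array and that of *Dnaja3* on 1, so their signs are read near background. *Hspb1* turned to 0.21 with the bead number as a block and to 0.28 with *Cmah*-null replicates 1 and 2 averaged. With 1 array left out, signs changed for *Hsp90ab1* (-0.016 to 0.580), *Hsp90b1* (-0.41 to 0.15), *Hspb1* (-0.63 to 0.30), *Cryab* (-0.23 to 0.25) and *Dnaja1* (-0.012 to 0.210). The cause was not tested. Of 294 alternative values of the 22 named genes, 274 kept their direction, and 13 genes kept it under every alternative run. These counts include the filter on detection, the variance prior with trend and robust, and the replicate block. Those settings leave a log2 fold change as it is, so they could not turn a sign.

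Deviations of arrays with the same replicate number correlated at 0.03, -0.18 and 0.03, so the numbers do not pair the samples. With the replicate block, 4 chaperones were called lower and 0 higher, with a median of -0.08. Signal near background limits the 9 genes detected on no array.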
